A study of Mus musculus with 44 samples.

Results

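The genes of fatty acid and triglyceride synthesis were followed in the liver of mice that had run on a treadmill or had remained sedentary, on a vitamin E-enriched or a control diet. The list held 34 genes taken by their known role, and it was drawn up with earlier results of these data known. Each gene was read from a probe set that the array annotation gives to that gene alone, and where several existed the probe set with the highest mean was taken. Such a probe set existed for 32 of the 34 genes, out of 23521 probe sets with exactly 1 gene symbol and 41345 in all, and 30 of the 32 passed the filter on low values and were tested. Scd2 and Acsl3 were covered only by probe sets shared with other genes and were not analysed here. Mogat1, an acyltransferase that adds a fatty acid to monoacylglycerol, and Pnpla5, a member of the triglyceride lipase family, were measured but stayed under the filter, with means of 1.23 and 1.16 on the log2 scale over all mice.

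Each of 44 male C57BL/6N mice gave 1 liver RNA sample, which was read on 1 array (Affymetrix Mouse Gene 2.1 ST) and expressed as log2 values from robust multi-array averaging (RMA). There were 12 exercised mice on the vitamin E diet, 12 exercised mice on the control diet, 10 sedentary mice on the vitamin E diet and 10 sedentary mice on the control diet, and the question was whether the antioxidant diet alters the response of the liver to a run. All mice were 11 to 12 weeks old and received a purified diet for 4 weeks, which in the vitamin E diet held vitamin E (α-tocopheryl acetate) at 2000 IU/kg together with vitamin C at 100 mg/kg, and in the control diet vitamin E at 149 IU/kg and vitamin C at 0 mg/kg. Effects of vitamin E and of vitamin C cannot be told apart in this design. The exercised mice ran once for 60 min at 13 m/min and a slope of 14°, and the sedentary mice stayed in cages next to the treadmill and had no food during the same 60 min, so that all 4 groups share this food withdrawal.

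Fatty acid synthesis starts from cytosolic acetyl-CoA, which is carboxylated to malonyl-CoA and condensed by fatty acid synthase to palmitate. Palmitate is elongated, desaturated, activated to acyl-CoA and esterified to glycerol phosphate, and the last acylation yields triglyceride. In the liver this programme is controlled in part at the level of transcription, through SREBP-1c under insulin and through ChREBP under carbohydrate, and liver X receptors induce the SREBP-1c gene. It is high after feeding and low during fasting.

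The promoters of Acss2, Fasn and Thrsp are shown with the 250 bases before a transcription start annotated by RefSeq (build GRCm38.p6), because SREBP needs the cofactors NF-Y and Sp1, which bind CCAAT and GC boxes, on many lipogenic promoters. Acss2 was the member with the smallest p in the comparison of the exercised groups, Fasn makes palmitate and was the gene the others were related to across mice, and Thrsp was the member of the regulator group with the smallest p in that comparison. Capitals mark CCAAT (or ATTGG on the other strand) and GGGCGG (or CCGCCC), and each sequence is read 5′ to 3′ towards the start. The windows are chr2:155517793-155518042 on the plus strand for Acss2, chr11:120824548-120824797 on the minus strand for Fasn and chr7:97417551-97417800 on the minus strand for Thrsp. The Fasn window lies inside the annotated span of the gene, which reaches to position 120825166.
Acss2: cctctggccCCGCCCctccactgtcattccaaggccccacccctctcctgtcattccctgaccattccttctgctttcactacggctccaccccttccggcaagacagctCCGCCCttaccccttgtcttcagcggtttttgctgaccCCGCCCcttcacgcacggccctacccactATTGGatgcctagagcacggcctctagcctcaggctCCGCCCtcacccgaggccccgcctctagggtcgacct
Fasn: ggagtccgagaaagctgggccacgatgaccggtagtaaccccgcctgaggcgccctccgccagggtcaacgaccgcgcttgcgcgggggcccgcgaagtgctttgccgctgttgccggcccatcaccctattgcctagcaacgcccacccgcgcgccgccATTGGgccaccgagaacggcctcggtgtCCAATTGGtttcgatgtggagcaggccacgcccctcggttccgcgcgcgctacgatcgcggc
Thrsp: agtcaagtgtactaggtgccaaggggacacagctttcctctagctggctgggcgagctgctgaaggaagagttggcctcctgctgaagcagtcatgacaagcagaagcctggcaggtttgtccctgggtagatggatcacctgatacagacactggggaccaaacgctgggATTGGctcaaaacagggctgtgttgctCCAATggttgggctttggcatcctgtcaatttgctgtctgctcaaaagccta
The Acss2 window held 1 CCAAT box and 4 GC boxes, the Fasn window 3 CCAAT boxes of which the last 2 overlap in the run CCAATTGG, and the Thrsp window 2 CCAAT boxes. Windows were given for 28 of the 34 genes, 36 windows in all. CCAAT was present in 17 of these windows (47.2%), against 33.8% of the 32851 windows of all genes, and GGGCGG in 21 (58.3%), against 32.7%. The E-box CACGTG, to which ChREBP and other factors bind, was present in 6 member windows (16.7%), against 6.02% of all, and the sterol regulatory element TCACNCCAC in 1 (2.78%), against 1.05%. These are counts of letters on both strands, without a test, and a match is not evidence of binding.

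The hepatocyte markers bore out the tissue label: all 6 passed the filter, and their mean lay between 10.35 and 10.85 in every mouse. The lowest of these means were those of exercised control mice 6 (10.35) and 3 (10.43). Of 6 measured adipocyte markers, Adipoq, Plin1, Lep and Retn were under the filter, whereas Fabp4 and Car3 passed it with means of 7.01 and 10.92 over all mice. All 4 measured pancreatic acinar markers were under it. Array medians lay between 1.53 and 1.67, and replicate arrays correlated with r of 0.943 to 0.965. Some livers stood apart in acute-phase transcripts. Saa3, an acute-phase apolipoprotein, was at 11.70 and 11.39 in exercised control mice 3 and 6, against 5.64 to 7.49 in the other 10 exercised control mice and at most 9.72, in sedentary vitamin E mouse 1, among all others. Values are therefore also given without exercised control mice 3 and 6. The animal numbers in the labels began with 24 or 27, without a stated meaning, and each series held 4 to 6 mice of every group, so that values are given within each series as well. Whole liver was used, and fewer cells of a type and less RNA per cell cannot be told apart.

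In exercised mice, Acss2, Acly, Me1, Acaca and Elovl6 were higher on the vitamin E diet than on the control diet by 1.42 times (Acaca) to 1.54 times (Acss2) at an unadjusted p under 0.05, and none passed adjustment for the number of probe sets. Of the 30 tested members, 26 were higher and 4 lower, with a median log2 difference of 0.11, against a median of -0.02 and 8349 of 18522 higher among all probe sets. At an unadjusted p under 0.05, 7 members were higher and 0 lower (Acss2, Acaca, Acsl5, Thrsp, Acly, Elovl6 and Me1), where 2.12% of all probe sets were higher and 3.49% lower. No member reached an adjusted p under 0.05, and 0% of all probe sets did. Acss2, Acly and Me1 belong to acetyl-CoA and NADPH supply, Acaca to malonyl-CoA synthesis, Elovl6 to elongation, Acsl5 to acyl-CoA activation and Thrsp to the regulators, and none was among the 7 tested genes of glycerolipid assembly. Lpin3, a relative of Lpin2 and 1 of the 4 lower members, passed the filter through 1 group alone, the exercised control mice, so that its difference from that group follows in part from the filter.

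Supply of acetyl-CoA and NADPH held 3 of these 7 genes. Acss2 (chr2:155518043-155562743), which makes acetyl-CoA from acetate, was 6.42, 7.73 and 8.53 (lowest, median, highest) in exercised vitamin E mice, against 6.26, 7.00 and 7.70 in exercised control mice. The groups overlapped, with 7 of 12 supplemented mice above every control mouse and 11 of 12 above the control mean. The means were 7.61 ± 0.50 and 6.99 ± 0.45 (SD, n = 12 each), a log2 difference of 0.62 (SE 0.19, unadjusted p = 0.00184, adjusted p = 0.748). Within the number series it was 0.66 and 0.59. Acly (chr11:100476352-100528000), which splits citrate into acetyl-CoA and oxaloacetate, was 7.07, 8.13 and 9.75 in exercised vitamin E mice, against 6.89, 7.63 and 8.15 in exercised control mice. Mouse 3 of the vitamin E group held the highest value and lay far above the next, and the groups overlapped below it. The log2 difference of Acly was 0.53 (SE 0.21, unadjusted p = 0.0167, adjusted p = 0.844), with 0.62 and 0.44 within the series, and 0.38 (unadjusted p = 0.0514) without this mouse. Me1 (chr9:86581363-86695914), the cytosolic malic enzyme that supplies NADPH, was 6.98, 8.56 and 9.44 in exercised vitamin E mice, against 6.39, 7.99 and 8.65 in exercised control mice, a log2 difference of 0.52 (SE 0.22, unadjusted p = 0.0227, adjusted p = 0.863). Slc25a1, the carrier that exports citrate from mitochondria, differed by 0.13 (unadjusted p = 0.0881).

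Among the enzymes of malonyl-CoA and palmitate synthesis, Acaca (chr11:84129635-84401651), the acetyl-CoA carboxylase of the cytosol, was 5.86, 6.55 and 7.95 in exercised vitamin E mice, against 5.33, 6.17 and 6.97 in exercised control mice. The groups overlapped, and 10 of 12 supplemented mice were above the control mean. Its means were 6.64 ± 0.58 and 6.13 ± 0.45 (SD, n = 12 each), a log2 difference of 0.51 (SE 0.18, unadjusted p = 0.0061, adjusted p = 0.801), with 0.44 and 0.58 within the series. Fasn (chr11:120805958-120825166), fatty acid synthase, was 6.33, 8.18 and 9.72 in exercised vitamin E mice, against 5.34, 7.72 and 9.17 in exercised control mice. The ranges overlapped, with 3 of 12 supplemented mice above every control mouse and 7 of 12 above the control mean. The log2 difference of 0.59 was similar in size to that of Acss2 but had a wider interval, from -0.13 to 1.32 (SE 0.36, unadjusted p = 0.105, adjusted p = 0.921). Acacb, the carboxylase at the mitochondrial membrane whose product restrains fatty acid import, differed by 0.34 (unadjusted p = 0.096).

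**Figure D1:**
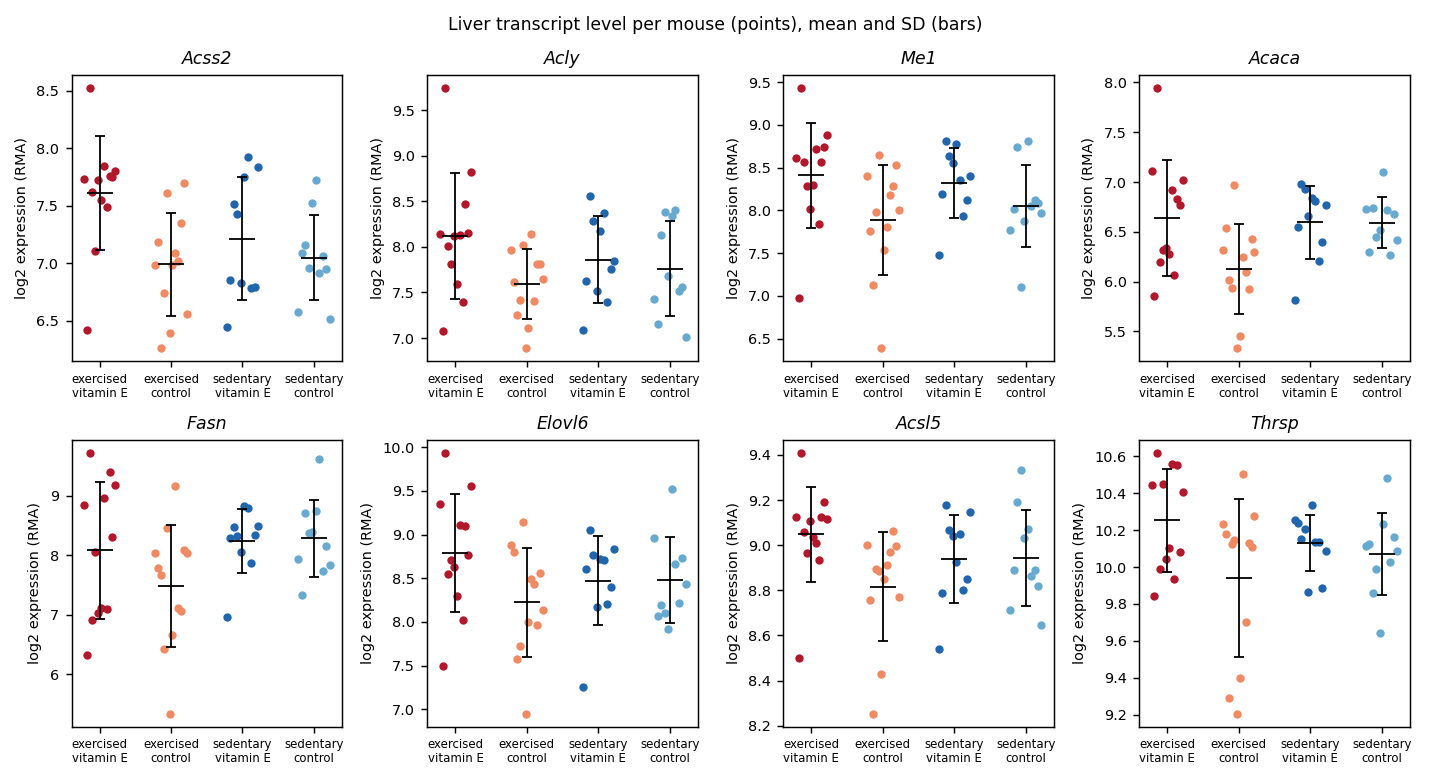
Log2 expression (RMA, vertical axes) of 8 members in each of the 44 mice (points) by group, with mean and SD (bars). The exercised vitamin E mice lie higher than the exercised control mice in mean for all 8, by 0.23 (Acsl5) to 0.62 (Acss2), with overlapping ranges, and exercised control mouse 6 is the lowest of its group for Fasn, at 5.34.

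Elongation split into 1 gene and the rest. Elovl6 (chr3:129532386-129638495), which elongates palmitate to stearate, was 7.50, 8.73 and 9.94 in exercised vitamin E mice, against 6.95, 8.29 and 9.14 in exercised control mice. Its groups overlapped, with 10 of 12 supplemented mice above the control mean and a log2 difference of 0.57 (SE 0.24, unadjusted p = 0.0197, adjusted p = 0.863). The other 7 elongation genes differed by -0.08 (Hacd3, a dehydratase of the elongation cycle) to 0.13 (Elovl3, an elongase of saturated and monounsaturated very long chains), none with an unadjusted p under 0.05. The 3 desaturases differed little: Fads1 by 0.14 (unadjusted p = 0.104), Fads2 by 0.07 (unadjusted p = 0.322) and Scd1, which introduces the double bond of oleate, by 0.06. Scd1 was 10.89, 11.18 and 11.44 in exercised vitamin E mice, against 10.80, 11.17 and 11.30 in exercised control mice, with an interval of the log2 difference from -0.07 to 0.19 (SE 0.06, unadjusted p = 0.335, adjusted p = 0.943). Over all mice Fads1, Fads2 and Scd1 had high means of 9.941, 10.885 and 11.157, against 11.673 for Alb and 12.116 for Ttr. Whether differences are compressed at this level was not tested.

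Acsl5 (chr19:55251861-55296628), an acyl-CoA synthetase that activates free fatty acids, was 8.50, 9.08 and 9.41 in exercised vitamin E mice, against 8.25, 8.89 and 9.06 in exercised control mice. Of 12 supplemented mice, 6 were above every control mouse, and the log2 difference was 0.23 (SE 0.09, unadjusted p = 0.0135, adjusted p = 0.822). Acsl4, a synthetase with a preference for arachidonic acid, differed by 0.03. Of the 7 tested genes of glycerolipid assembly, 4 were higher and 3 lower, with a median of 0.01. The highest difference was 0.21 (Gpam, the mitochondrial acyltransferase of the first assembly step) and the lowest -0.29 (Lpin3, at a mean of 1.78 in exercised vitamin E and 2.08 in exercised control mice, the group through which it passed the filter). Dgat1 and Dgat2, which add the last acyl chain, differed by 0.07 and 0.01.

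Of the regulators, Thrsp (chr7:97412933-97417550), a nuclear protein induced by thyroid hormone and carbohydrate, was 9.84, 10.25 and 10.62 in exercised vitamin E mice, against 9.21, 10.13 and 10.50 in exercised control mice. In 4 exercised control mice, at 9.21, 9.29, 9.40 and 9.70, it lay below every supplemented mouse, and the other values overlapped. The log2 difference was 0.31 (SE 0.12, unadjusted p = 0.0139, adjusted p = 0.829). Mlxipl, which encodes ChREBP, was 7.17, 7.50 and 7.87 in exercised vitamin E mice, against 6.95, 7.48 and 7.77 in exercised control mice, a log2 difference of 0.12 (SE 0.09, unadjusted p = 0.184, adjusted p = 0.934). Mid1ip1, a relative of Thrsp that promotes assembly of acetyl-CoA carboxylase into active filaments, differed by 0.19 (unadjusted p = 0.393).

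Part of the difference between the exercised groups rested on few control mice. Without exercised control mice 3 and 6, 23 members were higher and 7 lower, the median was 0.08, and 2 members instead of 7 had an unadjusted p under 0.05: Acss2 (0.49, p = 0.0132) and Acaca (0.42, p = 0.0256). Without these mice Acly differed by 0.43 (p = 0.0616), Elovl6 by 0.38 (p = 0.109), Me1 by 0.30 (p = 0.152), Thrsp by 0.17 (p = 0.118), Acsl5 by 0.14 (p = 0.103) and Fasn by 0.40 (p = 0.269). Elovl3 changed sign, to -0.14 without them. Exercised vitamin E mouse 2, with the lowest mean of the members in its own group (7.70), was kept in that fit. Leaving out this mouse alone moved the difference the other way, to 0.73 for Acss2 and 0.75 for Fasn. With any 1 mouse left out, 5 to 10 members had an unadjusted p under 0.05. Within the number series, 1 member had an unadjusted p under 0.05 among the animals numbered 24 and 5 among those numbered 27, with medians of 0.08 and 0.09. For fits with fewer mice, here and in the comparisons below, the share of all probe sets was not taken. The counts of members in such fits therefore have no reference. All 6 Kupffer cell markers were lower in exercised vitamin E mice than in exercised control mice (median -0.16, none with an unadjusted p under 0.05), the mean of the 6 ranging from 3.68 to 5.72 and from 3.75 to 5.99 in these groups, and without exercised control mice 3 and 6 there were 3 Kupffer cell markers higher and 3 lower (median 0.00). The 3 tested cholangiocyte markers were lower by a median of -0.20, with Krt7 at an unadjusted p of 0.0316 (0.0577 without mice 3 and 6). Of the 6 hepatocyte markers 4 were higher and 2 lower, with a median of 0.01. Cyp3a11 was higher by 0.33 (unadjusted p = 0.0474, against 0.347 without these mice), and the others differed by -0.04 (Fgb) to 0.03 (Ttr). The part of these cells in the members' differences was not tested.

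**Figure D2:**
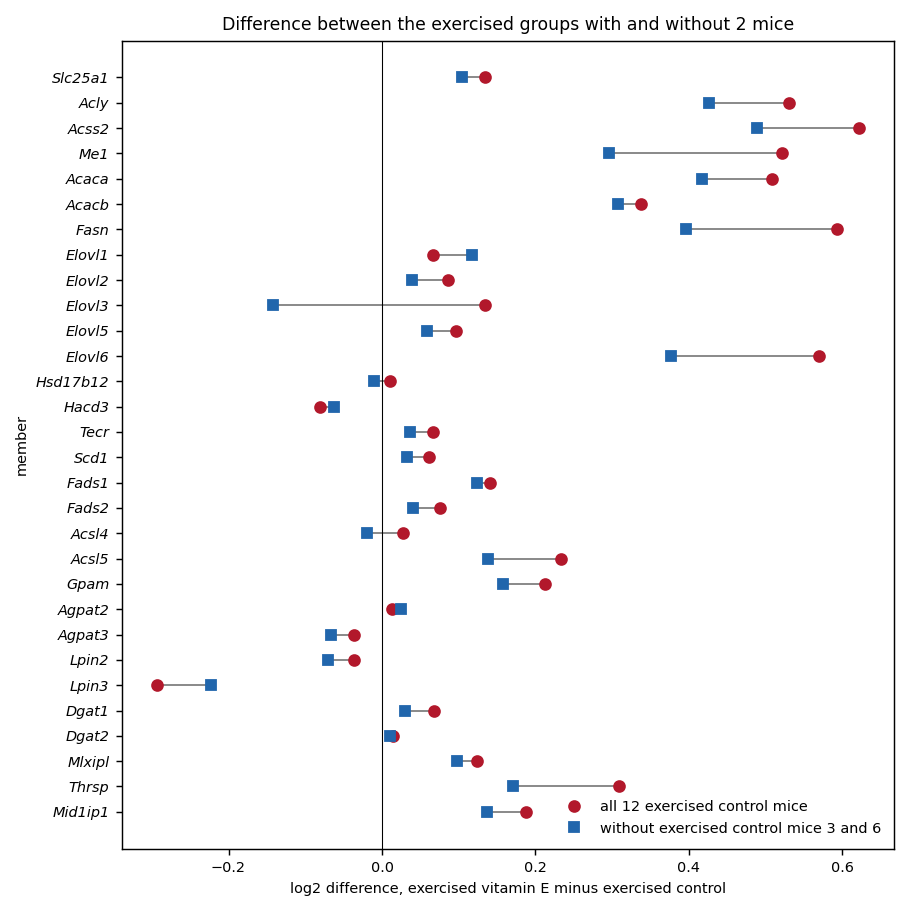
Log2 difference between exercised vitamin E and exercised control mice (horizontal axis) for each of the 30 tested members, with all 12 exercised control mice (circles) and without exercised control mice 3 and 6 (squares). The differences of Acss2 (0.62 and 0.49), Me1 (0.52 and 0.30) and Elovl6 (0.57 and 0.38) move towards 0, and that of Elovl3 changes sign.

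Among sedentary mice the log2 differences of the members between the diets ranged from -0.415 (Elovl3) to 0.269 (Me1). Of the 30 members, 13 were higher and 17 lower on the vitamin E diet, with a median of -0.01. Over all probe sets the median was 0.02, and 10368 of 18522 were higher. None reached an unadjusted p under 0.05 in limma, where 2.8% of all probe sets were higher and 1.97% lower, and none an adjusted p under 0.05 (0% of all probe sets). The exact rank-sum test called 1 member, Acsl4, at p under 0.05. Acaca averaged 6.59 ± 0.37 in sedentary vitamin E mice and 6.59 ± 0.25 in sedentary control mice (SD, n = 10 each), a log2 difference of 0.00 with an interval from -0.39 to 0.39. Fasn was 6.95, 8.33 and 8.82 in sedentary vitamin E mice, against 7.33, 8.27 and 9.62 in sedentary control mice, a log2 difference of -0.04 (interval -0.83 to 0.75). Acly differed by 0.10 (unadjusted p = 0.674), Scd1 by 0.06 (unadjusted p = 0.394) and Mlxipl by 0.12 (unadjusted p = 0.248). The intervals of Fasn, Acly, Scd1 and Mlxipl include both 0 and the difference between the exercised groups, and that of Acaca includes 0 but not the 0.51 between the exercised groups, with the interaction as the test of that contrast (0.51, unadjusted p = 0.0588).

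The smallest p values among sedentary mice were those of Acsl4, Fads2, Hacd3 and Hsd17b12. Acsl4 was 6.71, 7.08 and 7.33 in sedentary vitamin E mice, against 6.78, 7.31 and 7.68 in sedentary control mice, a log2 difference of -0.21 (SE 0.11, unadjusted p = 0.0605, adjusted p = 1). Of 10 supplemented mice, 9 lay below the control mean. Fads2, the desaturase at the entry of polyunsaturated fatty acid synthesis, was 10.27, 10.90 and 11.01 in sedentary vitamin E mice, against 10.78, 10.98 and 11.38 in sedentary control mice, a difference of -0.15 (unadjusted p = 0.0705). Sedentary vitamin E mouse 1 held the lowest value, and without it the Fads2 difference was -0.09 (unadjusted p = 0.241). Hacd3 differed by -0.15 (unadjusted p = 0.0841) and Hsd17b12, the ketoacyl-CoA reductase of the elongation cycle, by -0.11 (unadjusted p = 0.112). By step, 7 of 8 elongation genes and 2 of 3 desaturases were lower, as were 8148 of 18522 among all probe sets. All 4 genes of acetyl-CoA and NADPH supply were higher by 0.01 (Slc25a1) to 0.27 (Me1). The 6 Kupffer cell markers were all higher in sedentary vitamin E mice than in sedentary control mice (median 0.55, with Cd5l at an unadjusted p of 0.0222, or 0.0732 without sedentary vitamin E mouse 1). Of the 6 liver endothelial markers 5 were higher too (median 0.18), with Stab2 at 0.25 (unadjusted p = 0.0388) and Pecam1 at 0.24 (unadjusted p = 0.0403), or 0.109 for Stab2 without sedentary control mouse 1 and 0.0988 for Pecam1 without sedentary control mouse 5. The part of these cells in the members' values was not tested.

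On the vitamin E diet, exercised mice had higher Elovl3, Lpin2, Elovl5 and Acss2 than sedentary mice before adjustment. Of the 30 members, 23 were higher and 7 lower, with a median of 0.05 (all probe sets -0.02, with 8157 of 18522 higher). At an unadjusted p under 0.05, 4 were higher and 0 lower, where 2.71% of all probe sets were higher and 3.45% lower. None passed an adjusted p under 0.05, which 0.232% of all probe sets did. Elovl3 was 7.63, 8.97 and 9.61 in exercised vitamin E mice, against 7.13, 7.54 and 9.33 in sedentary vitamin E mice. The ranges overlapped, with 10 of 12 exercised mice above the sedentary mean and 2 above every sedentary mouse. The log2 difference was 0.96 (SE 0.35, unadjusted p = 0.00825, adjusted p = 0.482), with 0.69 and 1.23 within the number series. On the control diet Elovl3 was also higher with exercise, by 0.411, without an unadjusted p under 0.05. Between the sedentary groups it differed by -0.415, so that the vitamin E diet started from a lower mean. Lpin2, a phosphatidate phosphatase that makes diacylglycerol, was 9.27, 9.82 and 10.11 in exercised vitamin E mice, against 8.48, 9.54 and 9.78 in sedentary vitamin E mice, a difference of 0.31 (SE 0.13, unadjusted p = 0.025, adjusted p = 0.686).

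Elovl5, an elongase of polyunsaturated chains, was 10.06, 10.41 and 10.58 in exercised vitamin E mice, against 9.60, 10.21 and 10.40 in sedentary vitamin E mice, a difference of 0.19 (unadjusted p = 0.0395). Acss2 had a median of 7.73 in exercised vitamin E mice, against 7.14 in sedentary vitamin E mice, a difference of 0.40 (unadjusted p = 0.0498). The ranges of both genes overlapped between the groups, with 10 of 12 exercised mice above the sedentary mean for each. Acsl4 differed by 0.19 (unadjusted p = 0.0845), Acly by 0.26 (unadjusted p = 0.249), Acaca by 0.04 (unadjusted p = 0.815), Scd1 by 0.02 (unadjusted p = 0.807), Mlxipl by -0.06 (unadjusted p = 0.569) and Fasn by -0.16 (unadjusted p = 0.67). Sedentary vitamin E mouse 1 decided several of these calls. It had the lowest Fasn, Acaca, Acss2, Elovl5, Lpin2 and Acsl4 of its group, and without it 1 member instead of 4 had an unadjusted p under 0.05, with a median of 0.03. Lpin2 then differed by 0.20 (unadjusted p = 0.0986). Its mean Kupffer cell marker level was 5.96, in a group that ranged from 3.59 to 6.08, and all 6 markers were lower in exercised than in sedentary vitamin E mice (median -0.39), with Marco, which passed the filter through the sedentary vitamin E group alone, at an unadjusted p of 0.0287 (0.132 without sedentary vitamin E mouse 3). Their part in the members' differences was not tested.

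On the control diet, exercised mice had lower levels of several members than sedentary mice, again without a call after adjustment. Of the 30 members, 9 were higher and 21 lower, with a median of -0.06, against 0.02 over all probe sets, of which 9933 of 18522 were higher. At an unadjusted p under 0.05, 6 were lower and 1 higher, where 3.44% of all probe sets were lower and 5.96% higher. None passed an adjusted p under 0.05, which 0.68% of all probe sets did. Fads2 was 10.57, 10.83 and 11.07 in exercised control mice, against 10.78, 10.98 and 11.38 in sedentary control mice. The ranges overlapped, with 11 of 12 exercised mice below the sedentary mean and 5 below every sedentary mouse. The log2 difference was -0.20 (SE 0.08, unadjusted p = 0.0143, adjusted p = 0.355), with -0.28 and -0.10 within the number series. Acaca had a median of 6.17 in exercised control mice, against 6.27, 6.60 and 7.10 (lowest, median, highest) in sedentary control mice, and 7 of 12 exercised mice lay below every sedentary mouse. Its difference was -0.46 (SE 0.18, unadjusted p = 0.016, adjusted p = 0.366).

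Fasn averaged 7.48 ± 1.03 (SD, n = 12) in exercised control mice and 8.28 ± 0.64 (SD, n = 10) in sedentary control mice, a log2 difference of -0.80 (SE 0.38, unadjusted p = 0.0399, adjusted p = 0.508), with -0.96 and -0.65 within the number series. Elovl1, an elongase of saturated very long chains, differed by -0.18 (unadjusted p = 0.0317), Fads1, the other desaturase of polyunsaturated fatty acid synthesis, by -0.19 (unadjusted p = 0.0365) and Mid1ip1 by -0.46 (unadjusted p = 0.0496). Lpin2 was the member that was higher, at 9.34, 9.81 and 10.26 in exercised control mice, against 8.76, 9.55 and 9.76 in sedentary control mice, with 8 of 12 exercised mice above every sedentary mouse and a difference of 0.30 (SE 0.13, unadjusted p = 0.0265, adjusted p = 0.437). Acly differed by -0.17 (unadjusted p = 0.45), Scd1 by 0.01 (unadjusted p = 0.831) and Mlxipl by -0.06 (unadjusted p = 0.527). By step, all 4 genes of acetyl-CoA supply were lower, by -0.171 to -0.058, none with an unadjusted p under 0.05. All 3 genes of palmitate synthesis were lower, Acacb by -0.035. Of 7 tested genes of glycerolipid assembly 6 were higher, among them Lpin3, which passed the filter through the exercised control group alone. Among all probe sets 8589 of 18522 were lower.

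Without exercised control mice 3 and 6 the comparison on the control diet had 2 members lower and 2 higher at an unadjusted p under 0.05, with 12 higher and 18 lower in sign and a median of -0.02. Acaca then differed by -0.37 (p = 0.0545), Fasn by -0.60 (p = 0.113), Fads2 by -0.16 (p = 0.0482), Elovl1 by -0.23 (p = 0.00783) and Lpin2 by 0.34 (p = 0.0198), and Elovl3, the other member that was higher, by 0.69 (p = 0.033). Of the genes of acetyl-CoA supply Acss2 and Me1 changed sign without these mice, to 0.07 and 0.06, and Acacb was at 0.00. The median of the members was -0.12 among animals numbered 24 and 0.01 among those numbered 27. The 6 Kupffer cell markers all lay higher in the exercised control mice (median 0.34, none with an unadjusted p under 0.05), the mean of the 6 ranging from 3.75 to 5.99 in exercised and from 3.36 to 4.98 in sedentary control mice. Of the 6 liver endothelial markers 5 were higher (median 0.21), with Stab2 at 0.23 (unadjusted p = 0.0438) and Clec4g at 0.23 (unadjusted p = 0.0494). Without exercised control mice 3 and 6 the medians were 0.13 for the Kupffer cell markers, 5 of 6 higher, and 0.20 for the endothelial markers, with Stab2 at an unadjusted p of 0.0379 and Clec4g at 0.066, and without sedentary control mouse 1 these p values were 0.128 and 0.152. The part of these cells was not tested.

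**Figure D3:**
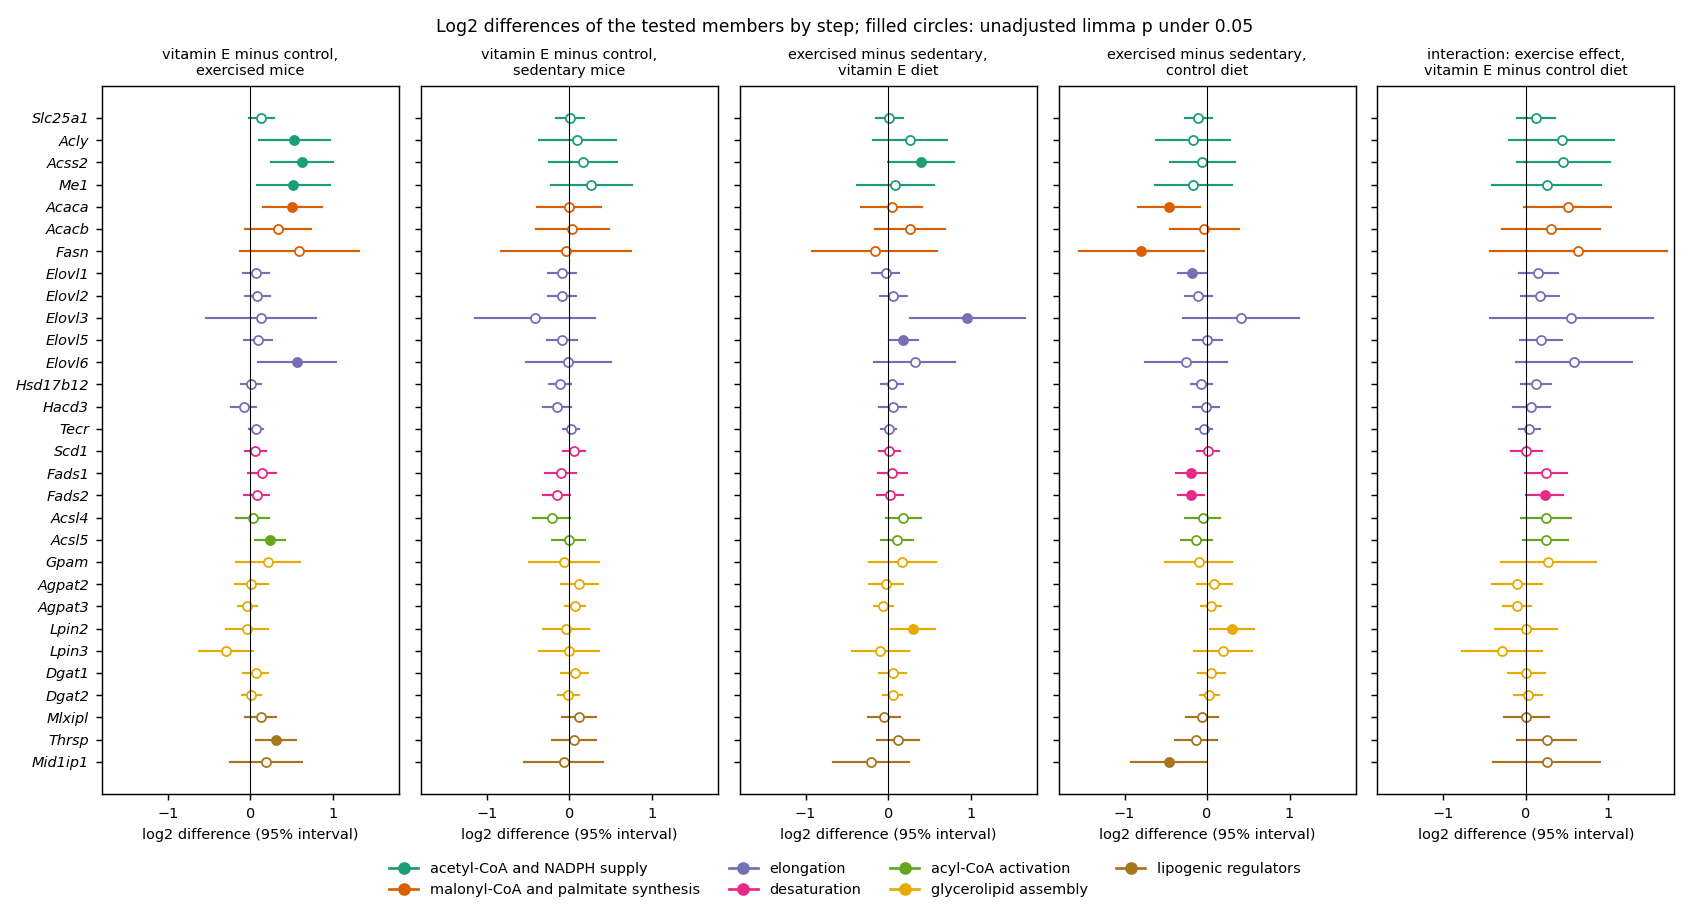
Log2 differences with 95% intervals (horizontal axes) of the 30 tested members, coloured by step, in the 4 comparisons and the interaction. Filled circles mark an unadjusted limma p under 0.05: 7 members between the exercised groups, 0 between the sedentary groups, 4 with exercise on the vitamin E diet, 7 with exercise on the control diet and 1 in the interaction.

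The interaction asks whether exercise went with a different change on the vitamin E diet than on the control diet. It was above 0 for 27 of the 30 members and below 0 for 3, with a median of 0.20, against -0.03 over all probe sets, of which 7878 of 18522 were above 0. At an unadjusted p under 0.05, 1 member was above 0 and 0 below, where 1.78% of all probe sets were above and 3.7% below, and 0% passed an adjusted p under 0.05. Fads2 had an interaction of 0.23 (SE 0.11, unadjusted p = 0.047, adjusted p = 0.9), from an exercise difference of 0.03 on the vitamin E diet and -0.20 on the control diet. Fads1 had 0.25 (unadjusted p = 0.0582), Acaca 0.51 (unadjusted p = 0.0588), Acsl5 0.24 (unadjusted p = 0.0829, and -0.01 among animals numbered 27) and Elovl6 0.58 (unadjusted p = 0.104). For Fasn it was 0.63 with an interval from -0.44 to 1.71, for Acly 0.43 (unadjusted p = 0.179), for Scd1 0.00 (interval -0.18 to 0.19) and for Mlxipl 0.01 (interval -0.27 to 0.28). The comparisons share groups of mice, so that an exercised control group with low values moves the difference between the exercised groups, the exercise difference on the control diet and the interaction together. Without exercised control mice 3 and 6 the interaction was above 0 for 23 members, with a median of 0.13 and no unadjusted p under 0.05. Without exercised vitamin E mouse 2 it had 6 members with an unadjusted p under 0.05, and without sedentary vitamin E mouse 1 it had 0. The 6 Kupffer cell markers had interactions below 0 (median -0.71, Cd5l at an unadjusted p of 0.0149), as had 4 of the 6 liver endothelial markers (median -0.14, Stab2 at an unadjusted p of 0.032), and their part was not tested.

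The mice of a group differed more from each other in some members than the groups did. Fasn had a within-group SD of 0.90 on the log2 scale and ranged from 5.34 to 9.72 over the 44 mice, and Elovl3 had an SD of 0.83, Elovl6 of 0.59, Me1 of 0.55, Mid1ip1 of 0.54 and Acly of 0.53, against a median of 0.33 over all tested probe sets. Tecr, the enoyl-CoA reductase that ends the elongation cycle (0.09), Dgat2 (0.12), Agpat3 (0.13), Hsd17b12 (0.14) and Scd1 (0.14) varied least. These SDs are not corrected for how steeply each probe set responds to its transcript. The mean of the 30 members was lowest in exercised control mice 6 (7.58) and 3 (7.69), sedentary vitamin E mouse 1 (7.63) and exercised vitamin E mouse 2 (7.70), and highest in exercised vitamin E mouse 3 (8.51). Exercised control mouse 6, sedentary vitamin E mouse 1 and exercised vitamin E mouse 2 also had Kupffer cell marker means of 5.99, 5.96 and 5.72, which include the highest of both exercised groups. Exercised control mouse 3 had a Kupffer cell marker mean of 4.53. The highest of all, 6.08, was that of sedentary vitamin E mouse 3, in which the mean of the 30 members was 8.17. The relation between these markers and the members was not tested.

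**Figure D4:**
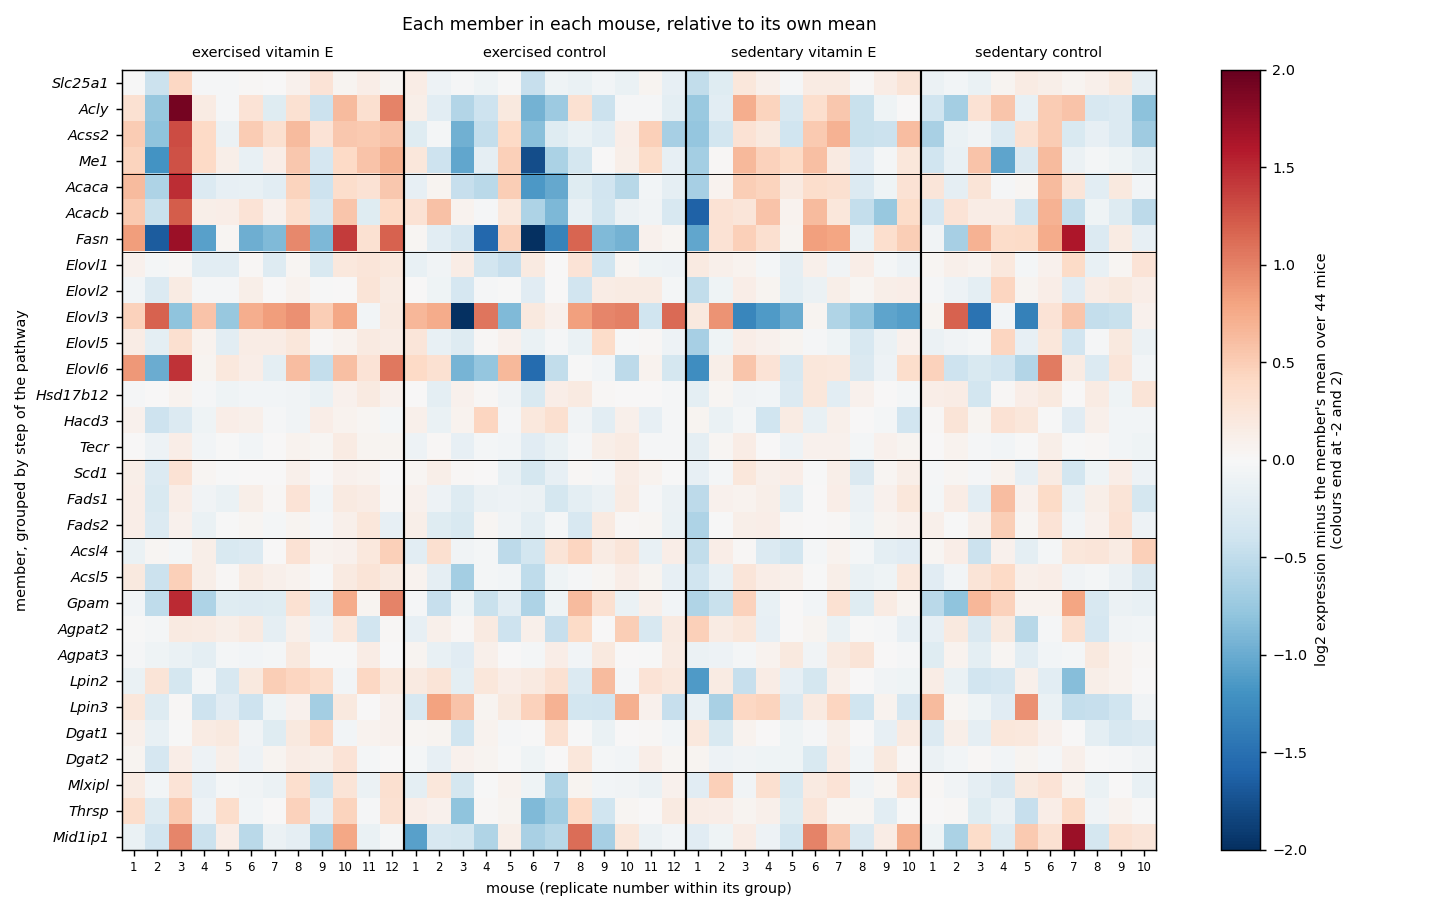
Log2 expression of each tested member (rows, grouped by step) in each of the 44 mice (columns, by group), relative to the member's own mean. Fasn, Acaca, Acly, Me1 and Elovl6 are low together in exercised control mouse 6, exercised vitamin E mouse 2 and sedentary vitamin E mouse 1 and high together in exercised vitamin E mouse 3, while Scd1, Tecr and Dgat2 stay close to 0.

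To describe which members varied together, the deviation of each mouse from its group mean was compared with that of Fasn across all 44 mice. With mice permuted within groups and 42 genes compared, 16 of 29 members had an adjusted permutation p of r under 0.05, all with a positive r, and 7 had r above 0.6. By rank (rho), Hacd3 passed with a negative sign (rho = -0.357, adjusted permutation p = 0.0427, against r = -0.303 and 0.109). Fads1 passed by r (adjusted permutation p = 0.0437) and not by rho (0.0575). Of the 13 genes of SREBP-1, ChREBP and liver X receptor control, 4 had an adjusted permutation p of r under 0.05. The other probe sets were not compared with Fasn. The share of all transcripts that vary with it is therefore not known, and these counts have no reference. Acaca was closest (r = 0.831, rho = 0.845), followed by Acly (r = 0.795, rho = 0.792), Gpam (r = 0.774, rho = 0.743) and Elovl6 (r = 0.77, rho = 0.734), each with a permutation p of 1e-05, the smallest that 100000 permutations can give, and an adjusted p of 6e-05 over the 42 genes for both measures. Mid1ip1 had r = 0.682, Thrsp r = 0.658 and Me1 r = 0.648. Over all 435 pairs of members the median r was 0.177. Of the 7 tested genes of glycerolipid assembly, Gpam and Dgat2 (r = 0.467, adjusted permutation p = 0.00685) passed, whereas Dgat1 (r = 0.00), Agpat2 (r = 0.01), Agpat3 (r = -0.01), Lpin2 (r = -0.24) and Lpin3 (r = 0.05) did not.

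Srebf1, which encodes SREBP-1, varied with Fasn at r = 0.744 (rho = 0.747) and Insig1, a target of SREBP that retains it in the endoplasmic reticulum, at r = 0.649 (rho = 0.558), with adjusted permutation p of 6e-05 and 0.000157 for r. Insig2, its relative that is expressed in fasting liver, had r = -0.293 (adjusted permutation p = 0.109) and Mlxipl r = 0.526 (adjusted permutation p = 0.0011). Without the 2 mice farthest from the median, exercised control mouse 6 (Fasn 2.14 under its group mean) and exercised vitamin E mouse 2 (1.75 under), r was 0.793 for Acaca, 0.764 for Acly, 0.776 for Srebf1 and 0.209 for Scd1, against 0.411 for Scd1 in all mice, and 5 members kept r above 0.6. Among the animals numbered 24, r was 0.908 for Acaca and 0.564 for Srebf1, and among those numbered 27 it was 0.82 and 0.924. Of the 7 members with r above 0.6, 6 were above it in each series. Some members with a smaller r differed between the series. Slc25a1 had r of 0.736 (numbered 24) and -0.0256 (numbered 27), and Scd1 0.674 and 0.0775. Lpin2 had -0.0963 and -0.617. Cell make-up and RNA quality of a sample act on all its transcripts, and their part in these correlations was not tested.

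**Figure D5:**
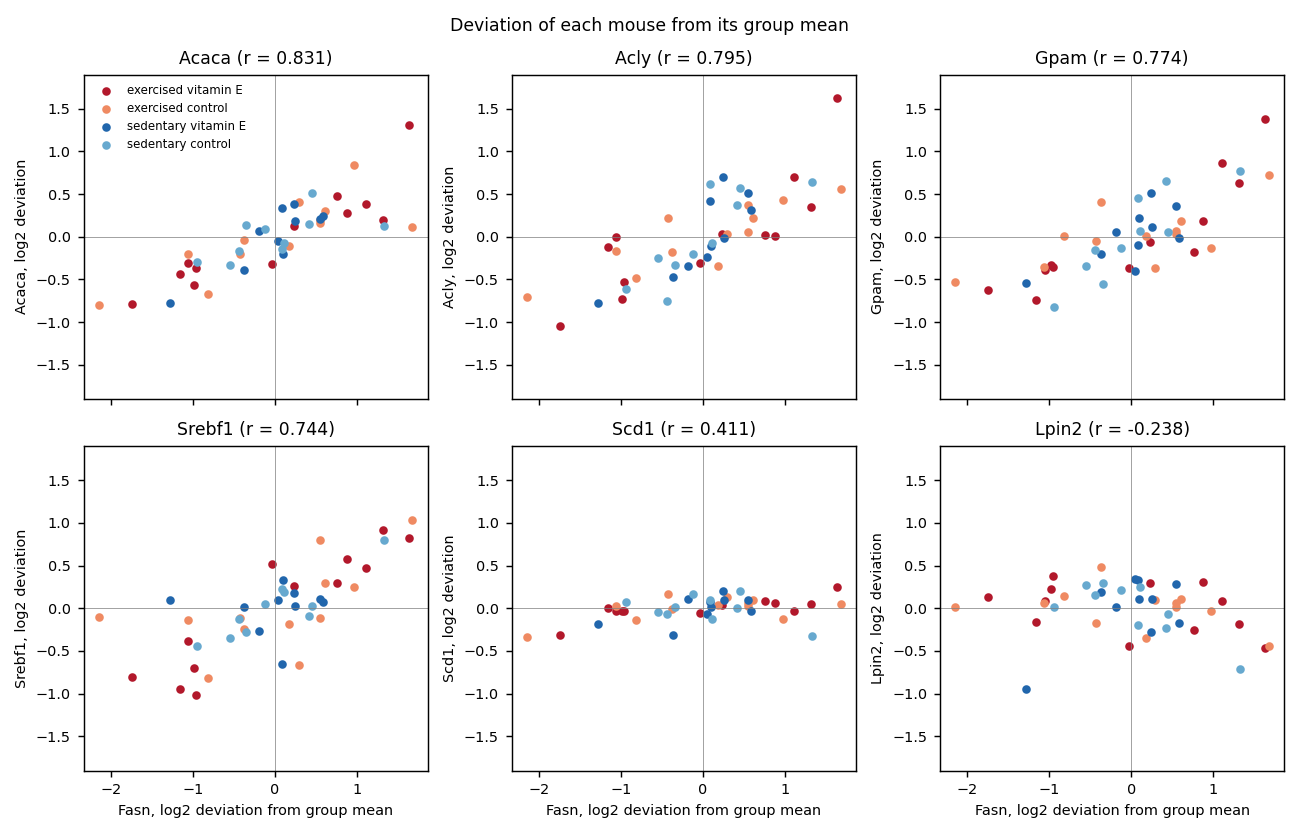
Deviation of each of the 44 mice from its group mean, for Fasn (horizontal axes, log2) and 6 other transcripts (vertical axes, log2), coloured by group. Acaca (r = 0.831), Acly (r = 0.795), Gpam (r = 0.774) and Srebf1 (r = 0.744) follow Fasn, and Lpin2 does not (r = -0.238). Scd1 has a small range (r = 0.411, with 0.674 among animals numbered 24 and 0.0775 among those numbered 27).

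Other genes of the pathway were read from lists outside the 34 members. Of 14 genes that carry SREBP-1, ChREBP and liver X receptor control, 13 were tested, and 0 had an unadjusted p under 0.05 between the exercised groups, with a median difference of -0.03. Srebf1 was 4.35, 5.64 and 6.28 in exercised vitamin E mice, against 4.47, 5.18 and 6.33 in exercised control mice, a difference of 0.07 (unadjusted p = 0.733). Insig1 differed by 0.03 (unadjusted p = 0.84) and Insig2 by -0.05 (unadjusted p = 0.791). With exercise on the control diet, Mbtps2, a protease that releases SREBP from the membrane, was the gene of this list with an unadjusted p under 0.05 (difference 0.30, p = 0.00465), and its interaction was -0.34 (p = 0.0218).

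Of 25 further genes of fatty acid and triglyceride synthesis, 14 were tested. Pnpla3, a lipid droplet protein induced by SREBP-1c, was higher in exercised vitamin E than in exercised control mice by 0.51 (unadjusted p = 0.0414), near the lower end of the measured range with means of 2.50 and 1.99, and by 0.36 (unadjusted p = 0.113) without exercised vitamin E mouse 3. Lpin1, the relative of Lpin2 that is induced in fasting liver, was higher in exercised than in sedentary mice on the vitamin E diet by 0.59 (unadjusted p = 0.00792) and by 0.35 on the control diet (unadjusted p = 0.102). Gpat3, an acyltransferase of the endoplasmic reticulum, was higher with exercise on the control diet by 0.54 (unadjusted p = 0.0108), and Aacs, which activates acetoacetate for lipid synthesis, was lower by 0.49 on the log2 scale (p = 0.0498). Without exercised control mice 3 and 6, Lpin1 differed by 0.46 (p = 0.0434), Gpat3 by 0.36 (p = 0.0372), Aacs by -0.37 (p = 0.151) and Acss3 by 0.43 (p = 0.0143, against 0.272 in all mice) on the control diet. The interaction was below 0 for Agpat1 (-0.335, unadjusted p = 0.0302) and Elovl7 (-0.377, unadjusted p = 0.0462). Elovl7 passed the filter through 1 group alone. For Aacs the interaction was above 0 (0.708, unadjusted p = 0.0472, or 0.103 without exercised control mice 3 and 6). All 4 tested genes of glycolysis that feed lipogenesis were higher in exercised vitamin E than in exercised control mice, among them Pklr, the pyruvate kinase of liver (9.30 ± 0.39 and 8.88 ± 0.57, SD, n = 12 each, difference 0.42, unadjusted p = 0.0205) and Khk, ketohexokinase (difference 0.17, unadjusted p = 0.037). Exercised control mice 3 and 6 held the lowest Pklr values of their group, 7.88 and 8.01, and without them Pklr differed by 0.23 (p = 0.151), Khk by 0.11 (p = 0.159) and Gpd1, the cytosolic glycerol-3-phosphate dehydrogenase, by -0.02 (p = 0.844). No gene of these lists passed an adjusted p under 0.05.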

How the data were processed

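Liver RNA of 44 mice was measured on Affymetrix Mouse Gene 2.1 ST arrays. Per the labels, RNA was extracted with a fibrous tissue kit including DNase digestion, amplified with the Ovation Pico WTA System and labelled with biotin, and the authors made the deposited log2 values by RMA in Expression Console. They were read as deposited. Gene symbols came from the array annotation, and all 32 members with a probe set matched the RefSeq gene table of GRCm38.p6. Following the study's methods, a probe set entered the tests if its mean linear value exceeded 4 in any group (18522 of 41345). A limma model (version 3.58.1, R 4.3.3) held a mean for each of the 4 groups. Its moderated two-sided tests were adjusted by Benjamini-Hochberg over these 18522 probe sets. The procedure was tested on simulated data. Alternatives were fits of the compared groups only, other filters, normalizations and eBayes settings, array weights, number series as a block or alone, replicate number as a block, other choices of probe sets, an exact rank-sum test and leaving out mice. Correlations used two-sided permutation within groups. The members and gene lists, and the acute-phase transcripts, were chosen with earlier results of these data known. Genes given in full were the 5 members with the smallest p in each comparison and Fasn, Acaca, Acly, Scd1 and Mlxipl. The labels call the mice of a group biological replicates, and their number limits the precision. Figures were drawn with matplotlib in Python.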

Additional observations from a re-analysis of the deposited data

Results flagged for a closer look

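Within the sedentary groups, 6 of 60 combinations of tested member and group held a mouse that lay far from the others. This was measured as its gap to the nearest mouse over the range of the group. Chance gives about 1 in 20 such groups for a single gene, but all genes of a mouse were read from the same array. The combinations are therefore not independent, and the count cannot be set against that rate. Sedentary vitamin E mouse 1 was lowest for Fasn (6.953, nearest 7.867), Elovl6 (7.259, nearest 8.17), Fads2 (10.266, nearest 10.794) and Lpin2 (8.483, nearest 9.158). Sedentary control mouse 7 was lowest for Lpin2 (8.764, nearest 9.239) and highest for Mid1ip1 (5.37, nearest 4.183). The exercise difference of Fads2 differed between the vitamin E and the control diet by 0.226 (unadjusted p = 0.047 and adjusted p = 0.9 from limma).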

How the results depend on the processing

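No member passed an adjusted p under 0.05 in any comparison under any alternative run, and the medians kept their sign except with exercise on the control diet (0.01 among animals numbered 27) and between the sedentary groups. The number of members with an unadjusted p under 0.05 changed by more than 1.5 times as follows, and the cause was not tested. The share of all probe sets under each alternative was not taken, so that these counts have no reference. Between the exercised groups it was 1 among animals numbered 24 (7 in all mice), and 2 to 10 when mice were left out, 2 being without exercised control mice 3 and 6. Between the sedentary groups it was 1 with quantile normalization, array weights, the number series as a block or the rank-sum test and 2 among animals numbered 27 (0 in all mice), and 0 to 2 with 1 mouse left out. With exercise on the vitamin E diet it was 0 among animals numbered 24 (4 in all mice), and 1 to 5 with 1 mouse left out, 1 being without sedentary vitamin E mouse 1. With exercise on the control diet the number lower was 3 with only the compared groups, median centring or animals numbered 24, 2 with the rank-sum test and 1 among animals numbered 27 (6 in all mice), and 2 to 6 when mice were left out, 3 being without exercised control mouse 4, 7 or 9 or sedentary control mouse 4, 6 or 7. For the interaction it was 0 without filter, with median centring, with array weights or among animals numbered 24, 2 with quantile normalization, trended and robust eBayes or the series block (1 in all mice), and 0 to 6 when mice were left out. Correlations with Fasn above 0.6 numbered 12 among animals numbered 24. For genes outside the members and for the cell markers, leaving out mice was chosen after seeing the data.

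Same-numbered mice of different groups correlated weakly in their deviations, with 0 of 62 pairs above 0.1. In 12 of the 62 pairs, the mouse of the same number was the closest one of the other group. Of these, 5 were among the 12 pairs of exercised vitamin E and exercised control mice. Those 12 pairs had r of 0.02 to 0.09, with a median of 0.05. Whether the numbers pair mice was not tested further. With the replicate number as a block the counts were 2 with exercise on the vitamin E diet and 1 between the sedentary groups, and the other counts stayed within 1.5 times.

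Some differences changed sign. Most were near 0 in all mice, but the interaction of Acsl5 and the exercise difference of Acly on the control diet were not. Between sedentary groups Acaca was -0.013 (quantile) and -0.055 (numbered 24), Fasn 0.074 (array weights) and 0.125 (numbered 27) and Acly -0.039 (numbered 24), and with 1 mouse left out Acaca lay between -0.041 and 0.088 and Fasn between -0.147 and 0.106. With exercise, Scd1 was -0.022 (vitamin E diet, numbered 24), -0.014 (control diet, quantile) and -0.063 (control diet, numbered 24), Acaca -0.005 (vitamin E diet, replicate block) and Acly 0.032 (control diet, numbered 27), and with 1 mouse left out Acaca lay between -0.076 and 0.115 (vitamin E diet) and Scd1 between -0.018 and 0.044 (vitamin E diet) or -0.022 and 0.044 (control diet). In the interaction, Scd1 was -0.022, -0.006, -0.06 and -0.027 and Mlxipl -0.018, -0.035, -0.026 and -0.019 (median centring, array weights, numbered 27, without exercised control mice 3 and 6), and Acsl5 -0.01 (numbered 27), and with 1 mouse left out Scd1 lay between -0.033 and 0.038 and Mlxipl between -0.04 and 0.048.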
